A study of Mus musculus with 20 samples.

Results

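The 7c cocktail combines 7 small molecules, and the genes described here encode the proteins that those molecules bind, together with the core partners of the bound enzymes. The list holds 30 genes of the 57010 in the count table: 4 class I histone deacetylases (valproate), 2 GSK3 kinases (CHIR99021), 3 TGF-beta superfamily type I receptors (repsox), 4 genes for LSD1, CoREST and the monoamine oxidases (tranylcypromine), 9 adenylyl cyclases (forskolin), 3 retinoic acid receptors (TTNPB), and 5 genes for Polycomb repressive complex 2 (PRC2) and AHCY (DZNep). The members were picked by gene symbol from the known pharmacology of the compounds, with earlier results of these data known. The RNA was taken from 2 organs, liver and kidney, of UM-HET3 males, the offspring of a genetically heterogeneous cross of inbred strains, that were 12 months old when treated. Osmotic minipumps under the skin delivered, for 28 days, either 7c or the solvent alone (vehicle, 50% DMSO and 50% PEG300), and every mouse was housed singly. The dose was 1 mg/kg/day for valproate and 0.1 mg/kg/day for each of the 6 other compounds. Liver and kidney each had 6 libraries from 7c-treated and 4 from vehicle-treated mice, 20 in all, named below by their group and replicate number. All 7 compounds were given together, so the effect of a single compound cannot be told apart from that of the others.

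The compounds act on the activity of these proteins, and mRNA was measured here, not activity. Valproate inhibits class I histone deacetylases, which remove acetyl groups from histones. CHIR99021 inhibits GSK3, which marks beta-catenin for degradation and restrains glycogen synthase. Repsox blocks the kinase of the TGF-beta type I receptor ALK5. Tranylcypromine inactivates the flavin enzymes LSD1, MAO-A and MAO-B. Forskolin activates the membrane adenylyl cyclases, which make cAMP, the second messenger through which glucagon acts in hepatocytes and vasopressin in the collecting duct. TTNPB is an agonist of the retinoic acid receptors. DZNep inhibits S-adenosylhomocysteine hydrolase (AHCY), so that S-adenosylhomocysteine accumulates and methyltransferases such as EZH2 are inhibited.

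Library totals ranged from 28383359 to 34153084 counts in liver and from 27855849 to 64872451 in kidney. Levels are given below as CPM, the counts scaled to the TMM-adjusted library size, and levels of different genes are compared only as RPKM, which divides CPM by exon length in kilobases, apart from the shares of counts between a gene and its copy. The summed level of 10 hepatocyte markers was 104187 to 143089 CPM in liver and 2422 to 3261 CPM in kidney, and that of 10 nephron markers was 9833 to 11852 CPM in kidney and at most 2.35 CPM in liver. Liver library 6 of 7c held 1071 CPM of skeletal muscle markers against at most 2.55 CPM in the other livers. Gene levels tended to rise or fall with exon length from library to library, with a Spearman rho across genes of −0.220 to 0.161 in liver and −0.268 to 0.253 in kidney, where vehicle kidney 2 and 7c kidney 5 had the lowest values. Low counts were mostly even numbers, 79.0% of the values from 1 to 10, for a reason that was not tested. Of the 30 targets, 27 had 10 or more counts in 50% or more of a tissue's libraries, the condition for a test, in both tissues, and Acvr1c, Adcy2 and Adcy8 did not pass it in either.

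**Figure D1:**
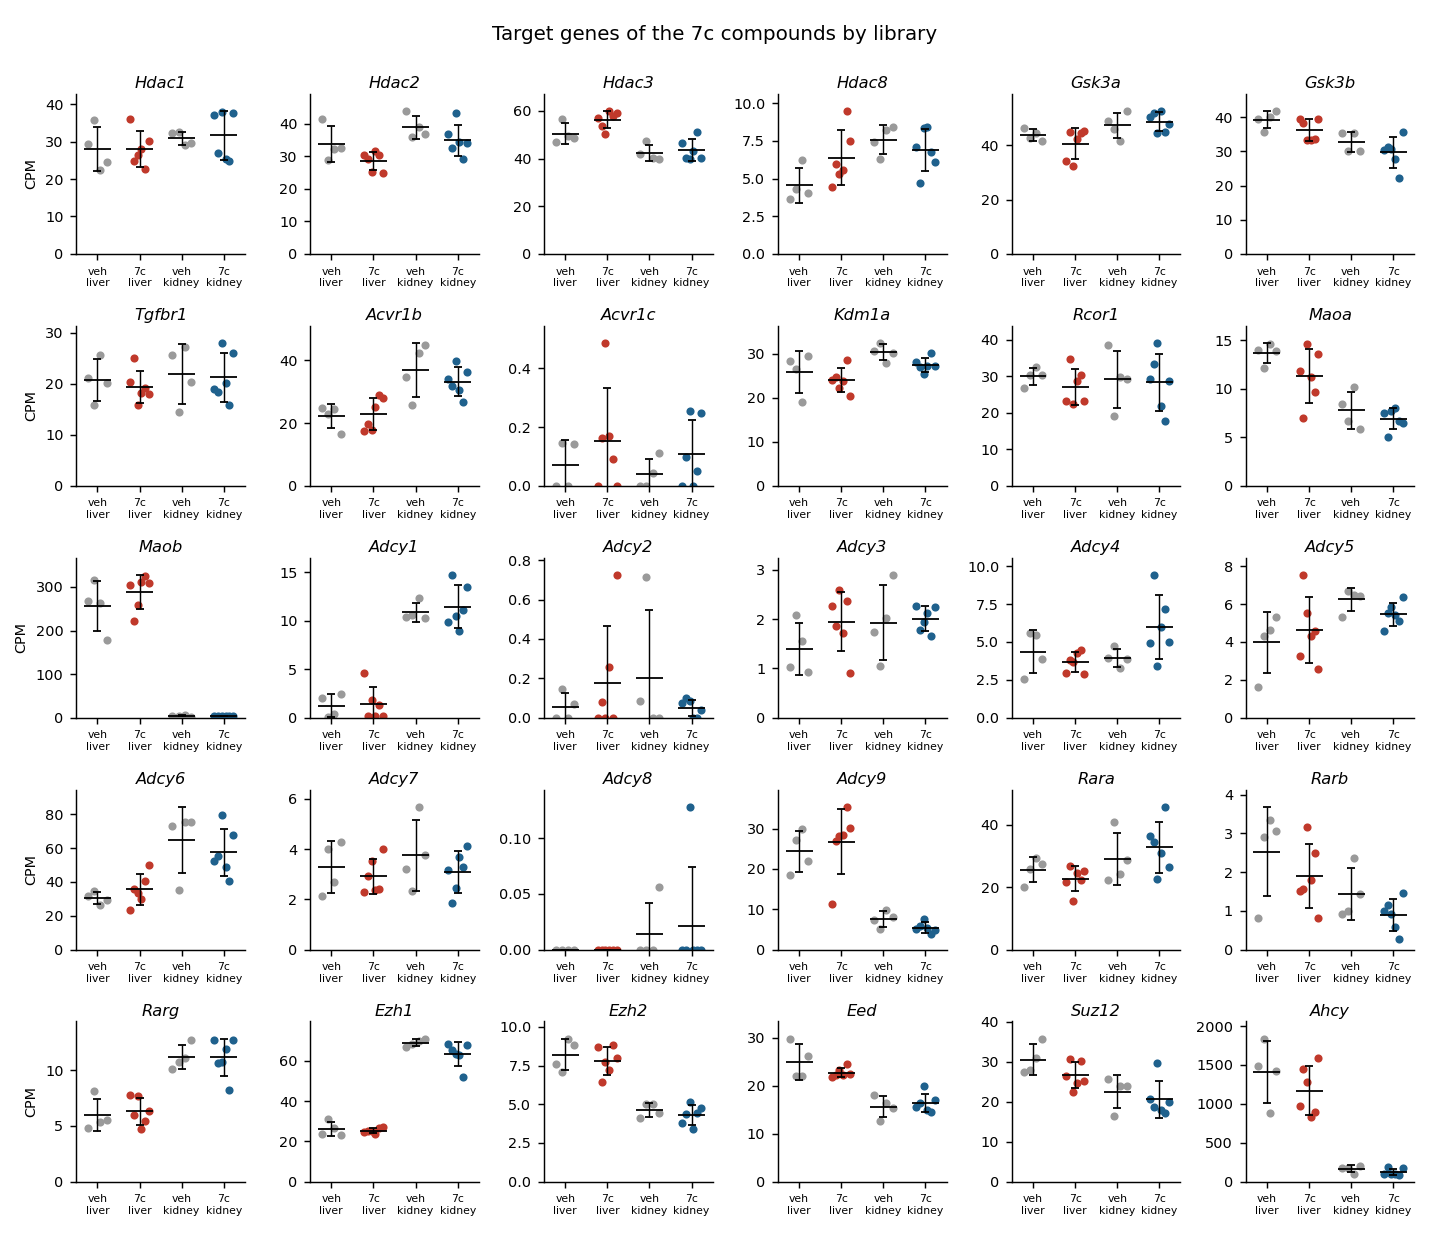
Level of each of the 30 target genes in every library, in CPM on linear axes that start at 0, with points for libraries, a horizontal line for the group mean and bars for the SD (n = 4 for vehicle and n = 6 for 7c). The 7c and vehicle points overlap in every panel, while liver and kidney are apart for genes such as Maob, Ahcy, Adcy1 and Ezh1.

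No target gene differed between 7c and vehicle past the threshold, in either tissue. In liver, 0 of 27 had an adjusted p under 0.05 in edgeR's quasi-likelihood test with Benjamini-Hochberg adjustment, where 0.00666% of all 15012 tested genes did. In kidney 0 of 27 were called, where 0% of 17749 tested genes were. At an unadjusted p under 0.05 there were 1 member in liver and 2 in kidney of 27, where 3.76% and 2.61% of all genes had such a p. DESeq2, limma-voom and edgeR's likelihood ratio test also called 0 members in both tissues. The 7c and vehicle ranges overlapped for all 27 targets in both tissues, and 0.666% of all genes in liver and 0.716% in kidney had ranges that did not overlap.

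The size of the differences bounds what could have been missed. The log2 fold changes of the 27 targets ran from −0.44 (Rarb) to 0.47 (Adcy3) in liver, with a median of −0.12, and from −0.68 (Rarb) to 0.59 (Adcy4) in kidney, with a median of −0.13. The median over all tested genes was 0.00 in liver and −0.01 in kidney. The median size of the change, regardless of sign, was 0.16 for the targets and 0.13 for all genes in liver, and 0.15 and 0.14 in kidney. The 95% intervals lay within 1 log2 unit of 0 for 24 targets in liver and 25 in kidney. The widest interval belonged to Adcy1 in liver, from −2.04 to 2.27. The difference between the 7c effects in kidney and liver was tested as an interaction, and 0 of 27 targets were called, where 0.00706% of 14163 genes were (edgeR quasi-likelihood, lowest adjusted p 1.00).

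**Figure D2:**
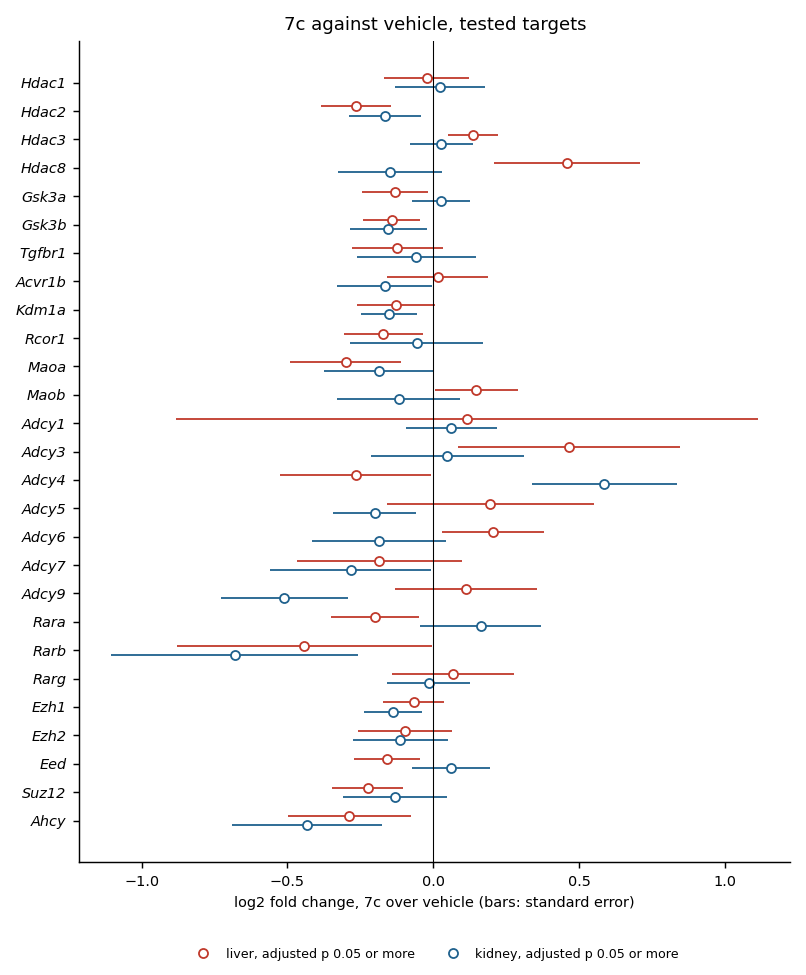
Log2 fold change of 7c over vehicle for the 27 tested targets in liver (red) and kidney (blue). Bars are standard errors derived from the edgeR fit, and circles are open because no adjusted p was under 0.05. The values lie between −0.68 and 0.59, and Adcy1 in liver and Rarb in both tissues have the longest bars.

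Hdac2 in liver and Adcy4 and Adcy9 in kidney had an unadjusted p under 0.05. Hdac2, a catalytic subunit of the NuRD, Sin3 and CoREST complexes, was at 41.7, 28.8, 32.2 and 32.6 CPM in the 4 vehicle livers and at 24.9 to 31.5 CPM (median 29.8) in the 6 7c livers. Its log2 fold change was −0.27 (SE 0.12, unadjusted p = 0.0446, adjusted p = 1.00, edgeR), and 2 of the 6 7c livers lay below all vehicle livers. Adcy4, a cyclase known from endothelial cells, was at 3.93, 4.70, 3.27 and 3.90 CPM in the vehicle kidneys and at 3.44 to 9.43 CPM (median 5.51) in the 7c kidneys. A total of 5 of the 6 7c kidneys lay above all vehicle kidneys, with a log2 fold change of 0.59 (SE 0.25, unadjusted p = 0.0348, adjusted p = 0.997). In liver the sign of the Adcy4 change was the opposite, −0.27 (SE 0.26), and the interaction was 0.87 (SE 0.37, unadjusted p = 0.0273, adjusted p = 1.00). Adcy9, a widely expressed cyclase that responds only weakly to forskolin, was at 7.42, 5.04, 9.94 and 8.19 CPM in vehicle kidneys and at 3.81 to 7.71 CPM (median 5.12) in 7c kidneys, with a log2 fold change of −0.51 (SE 0.22, unadjusted p = 0.0370, adjusted p = 0.997). The Pearson r of log2 CPM with the first principal component of the kidneys was −0.62 for Adcy4 and 0.83 for Adcy9 (n = 10 libraries, as a description). The part of that component in these differences was not tested.

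The targets differed far more between the organs than between treatments. In vehicle mice, 6 targets were higher in kidney (28% of 19025 tested genes were) and 6 were higher in liver (24.2%). In 7c-treated mice, other animals with 6 libraries a tissue, 9 were higher in kidney (33.8% of 19028) and 10 in liver (30.4%). Ezh1, Adcy1, Adcy6, Acvr1b and Rarg were higher in kidney in both groups of mice, and Ahcy, Maob, Adcy9, Maoa, Ezh2 and Eed were higher in liver in both. Hdac8 was called in vehicle mice only and Hdac2, Hdac3, Gsk3a, Gsk3b, Adcy4, Rara, Rarb and Suz12 in 7c mice only, and the difference between those 2 groups of mice is the interaction above, which passed the threshold for none of them. The 7c-only calls of Hdac2 (log2 0.28, SE 0.11, adjusted p = 0.0354) and Rarb (−1.07, SE 0.40, adjusted p = 0.0284) were each kept in 12 of 18 alternatives. The sign was the same in both groups for 25 of 27. These are bulk tissues, in which fewer cells of a type and less RNA per cell cannot be told apart. The split depended on the scaling: with library size alone, which moved the median of all genes from 0.11 to 0.70 in vehicle mice and from 0.11 to 0.77 in 7c mice, 15 targets were higher in kidney and 3 in liver in vehicle mice (46.3% and 13.6% of all genes), and 19 and 3 in 7c mice (56.4% and 15.6%). Ahcy, Maob and Adcy9 were the 3 that stayed higher in liver, and Ezh1, Adcy1, Adcy6 and Rarg stayed higher in kidney, under every alternative.

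**Figure D3:**
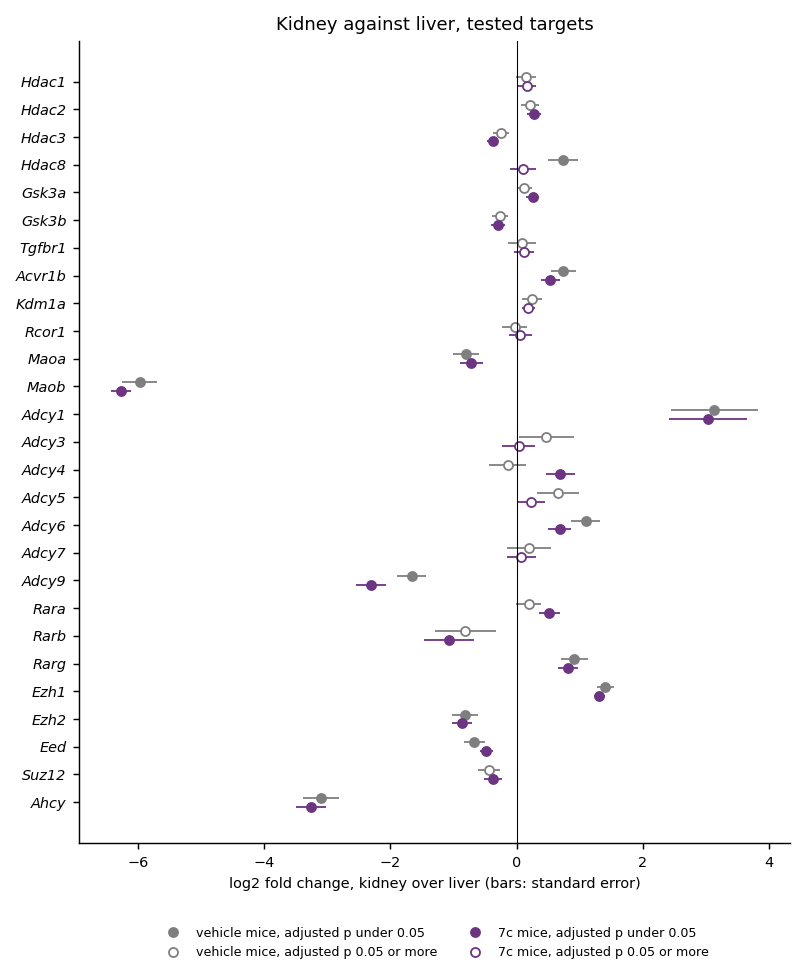
Log2 fold change of kidney over liver for the 27 tested targets in vehicle mice and in 7c-treated mice, with bars for the standard error and filled circles for an adjusted p under 0.05. Maob lies near −6 and Ahcy near −3 in both groups, and Adcy1 lies near 3.

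The monoamine oxidases and LSD1, the targets of tranylcypromine, showed the widest difference. Maob, which encodes the enzyme that oxidizes phenylethylamine, lies tail to tail with Maoa on the X chromosome. Maoa is at chrX:16485893-16554057 on the plus strand and Maob at chrX:16574807-16683686 on the minus strand (GRCm39). Maob was at 267, 316, 264 and 179 CPM in vehicle livers and at 4.16, 3.72, 5.56 and 2.73 CPM in vehicle kidneys. In 7c mice it was at 221 to 324 CPM (median 307) in liver and 2.95 to 4.71 CPM (median 3.73) in kidney. Every liver lay above every kidney, 62.9-fold on average in vehicle mice (log2 −5.98, SE 0.28, adjusted p = 1.2e-08) and 77.0-fold in 7c mice (log2 −6.27, SE 0.16, adjusted p = 4.59e-14). Maoa, whose enzyme prefers serotonin and noradrenaline, was at 14.0, 12.2, 14.6 and 13.9 CPM in vehicle livers and at 8.40, 6.72, 10.2 and 5.85 CPM in vehicle kidneys, a log2 difference of −0.80 (SE 0.20, adjusted p = 0.00631) that was −0.72 (SE 0.18, adjusted p = 0.00239) in 7c mice. The ranges overlapped in 7c mice. With library size alone the Maoa differences were −0.20 and −0.04 and were no longer called. Within a library, Maoa reached 0.0448 of Maob in vehicle livers and 1.60 times Maob in vehicle kidneys, per kilobase, and 0.0317 and 1.51 in 7c mice. This change in the ratio, which does not depend on scaling, was 5.57 log2 units in 7c mice (two-sided exact permutation test, p = 0.00216, the smallest it can give, adjusted p = 0.0115 over 16 ratio tests). In vehicle mice it was 5.16 log2 units, where the smallest p that the exact permutation test allows is 0.0286 (adjusted p = 0.0914). Here and below, the ratio tests between organs permuted the libraries as independent, although both organs came from the same mice. A test within pairs, which was not run, has fewer arrangements and so a larger smallest p.

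Kdm1a, which encodes the histone demethylase LSD1, and Rcor1, which encodes its scaffold CoREST, were nearly level between the organs. Kdm1a had a mean of 25.8 ± 4.70 CPM (SD, n = 4) in vehicle livers and 30.3 ± 1.84 CPM in vehicle kidneys, and Rcor1 29.9 ± 2.42 and 29.2 ± 7.85 CPM. Neither was called in either group of mice (log2 0.24 and 0.19 for Kdm1a, −0.03 and 0.06 for Rcor1), although with library size alone both were higher in kidney in both groups (log2 0.58 to 0.85), and Kdm1a in 7c mice also with RLE size factors, with DESeq2 and without 7c replicate 5. In RPKM, Maob made up 87.4 ± 2.85% (SD, n = 10) of the 4 tranylcypromine genes in liver and 9.49 ± 1.90% in kidney, where Kdm1a held the largest share, 45.2 ± 5.41%.

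Among the adenylyl cyclases, Adcy6 led in both organs, with 57.2 ± 5.81% of the RPKM of the 9 cyclases in liver and 69.6 ± 6.54% in kidney (n = 10). The cyclase that followed it was Adcy9 in liver (19.1 ± 3.37%) and Adcy4 in 7c kidneys (11.1 ± 4.41%, n = 6). In vehicle kidneys Adcy1, Adcy4 and Adcy5 were about level (7.01 ± 1.93%, 7.09 ± 3.19% and 6.98 ± 2.50%, n = 4). Adcy6 encodes a calcium-inhibited cyclase known in the collecting duct, and it was at 31.5, 34.5, 26.1 and 29.5 CPM in vehicle livers and at 73.0, 35.4, 75.5 and 75.4 CPM in vehicle kidneys. Vehicle kidney 2 was far below the other 3 but still above all vehicle livers, and the log2 difference was 1.10 (SE 0.23, adjusted p = 0.00187). In 7c mice the ranges were 23.5 to 49.9 CPM in liver and 40.9 to 79.6 CPM in kidney, which overlapped, with a log2 difference of 0.69 (SE 0.18, adjusted p = 0.00418). Adcy9 went the other way, with 18.6, 27.1, 29.9 and 21.9 CPM in vehicle livers against the kidney values above. The log2 difference was −1.66 (SE 0.23, adjusted p = 0.000108). In 7c mice it was at 11.4 to 35.4 CPM in liver and the difference was −2.31 (SE 0.24, adjusted p = 3.7e-07), with no overlap in either group of mice.

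Adcy1, a calmodulin-stimulated cyclase best known from neurons, was at 10.4, 10.6, 12.3 and 10.3 CPM in vehicle kidneys and at 8.99 to 14.8 CPM (median 10.8) in 7c kidneys. In liver it was at 2.08, 0.0729, 0.345 and 2.49 CPM in vehicle mice and at 0.161 to 4.66 CPM (median 0.726) in 7c mice. All kidneys lay above all livers, with a log2 difference of 3.14 (SE 0.69, adjusted p = 0.00271) in vehicle mice and 3.04 (SE 0.62, adjusted p = 0.000535) in 7c mice. The 10 livers did not form a continuous range. A set of 5 (vehicle 2 and 3, and 7c 2, 4 and 6) held 0.0729 to 0.345 CPM and the other 5 (vehicle 1 and 4, and 7c 1, 3 and 5) held 1.27 to 4.66 CPM, so both treatments were in both sets. A gap of that width, 1.73 log2 units, was found in 0.759% of the 15012 genes tested in liver, and the kidneys had none (widest gap 0.14).

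The remaining cyclases were low. In the order of their mean RPKM in liver, Adcy4 (0.842), Adcy5 (0.590), Adcy7 (0.265), Adcy3 (0.139) and Adcy1 (0.105) were all below 1 RPKM, and each overlapped the one that followed it. Adcy4 in kidney was higher than in liver in 7c mice (log2 0.69, SE 0.23, adjusted p = 0.0163), a call lost without 7c replicate 2 and under limma-voom, and not in vehicle mice (−0.14, SE 0.30, adjusted p = 0.723). Adcy3, Adcy5 (calcium-inhibited, the closest relative of Adcy6) and Adcy7 were called in no comparison under TMM scaling. Adcy2 had 0 to 16 counts in liver and 0 to 32 in kidney. Adcy8 had 0 counts in all 10 livers, which at these depths allows a level of up to 0.136 CPM (3 counts, counting error only, or 0.272 CPM if each fragment gave 2 counts), and 2 and 6 counts in vehicle kidney 4 and 7c kidney 3, with 0 in the other 8 kidneys.

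Of the genes for PRC2 and AHCY, through which DZNep acts on histone methylation, Ezh1 was higher in kidney, and Ezh2 and Ahcy were higher in liver under TMM scaling. Ezh1 and Ezh2 encode alternative catalytic subunits of PRC2, and Ezh2 is known to be the form of dividing cells. Ezh1 was at 23.5, 31.0, 26.8 and 23.2 CPM in vehicle livers and at 66.9, 68.3, 70.1 and 71.0 CPM in vehicle kidneys. The log2 difference was 1.41 (SE 0.13, adjusted p = 4.66e-06). In 7c mice it was at 23.6 to 27.0 CPM in liver and 51.9 to 68.4 CPM in kidney (log2 1.31, SE 0.09, adjusted p = 3.68e-09), and no kidney overlapped a liver. Ezh2 was higher in liver, at 7.63, 7.11, 9.24 and 8.81 CPM in vehicle livers and 4.10, 4.99, 4.99 and 4.43 CPM in vehicle kidneys, with log2 differences of −0.82 (SE 0.20, adjusted p = 0.00534) and −0.87 (SE 0.15, adjusted p = 0.000145) in vehicle and 7c mice. Those of Ezh2 shrank to −0.23 and −0.19 with library size alone and were then not called. The ratio of Ezh1 to Ezh2 per kilobase was 2.51 in vehicle livers, 2.57 in 7c livers, 11.8 in vehicle kidneys and 11.7 in 7c kidneys. The ratio differed between the organs by 2.18 log2 units in 7c mice (exact permutation test without pairing, p = 0.00216, adjusted p = 0.0115) and by 2.23 in vehicle mice (exact p = 0.0286, adjusted p = 0.0914). It differed between 7c and vehicle by 0.03 in liver and −0.02 in kidney (exact p = 0.824 and 0.886).

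The other PRC2 subunits did not follow Ezh1. Eed, which encodes the subunit that reads trimethylated H3K27, had means of 25.0 ± 3.78 CPM in vehicle livers and 15.6 ± 2.21 CPM in vehicle kidneys (log2 −0.67, SE 0.17, adjusted p = 0.00539) and was also lower in 7c kidneys (−0.48, SE 0.10, adjusted p = 0.000674), but with library size alone the latter became 0.19 and neither was called. Suz12, the scaffold subunit, was at 30.5 ± 3.82 and 22.4 ± 4.14 CPM in vehicle mice (log2 −0.44, SE 0.17, adjusted p = 0.0511), which was called in 5 of 16 alternatives, and its call in 7c mice (−0.37, SE 0.14, adjusted p = 0.0308) was lost in 11 of 18 alternatives and was 0.30 with library size alone. Across the 10 kidneys, Ezh2 and the mean of 16 proliferation genes had a Pearson r of −0.58 (permutation p = 0.0771) and a Spearman rho of −0.61 (permutation p = 0.0670), and across the 10 livers −0.08 and 0.07. Adjusted over 4 such relations the kidney p was 0.308. Without the 2 kidneys farthest from the median of the proliferation genes r was −0.68, and within the 6 7c kidneys it was −0.66, the 4 vehicle kidneys being too few for a value.

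Ahcy, which encodes S-adenosylhomocysteine hydrolase at chr2:154901230-154916422 on the minus strand (GRCm39), was the most abundant target in both organs, with a mean of 433 RPKM in liver and 47.7 RPKM in kidney. It was at 1491, 1839, 885 and 1428 CPM in vehicle livers and at 178, 178, 95.9 and 206 CPM in vehicle kidneys. In 7c mice it was at 837 to 1589 CPM (median 1129) in liver and 90.6 to 187 CPM (median 97.5) in kidney. The livers were 8.54-fold above the kidneys in vehicle mice (log2 −3.09, SE 0.29, adjusted p = 3.45e-06) and 9.57-fold in 7c mice (−3.26, SE 0.24, adjusted p = 9.7e-09), with no overlap. Between 7c and vehicle the log2 fold change was −0.29 (SE 0.21) in liver and −0.43 (SE 0.26) in kidney, and neither was called (adjusted p = 1.00 and 0.997).

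The Ahcy values were split within each treatment. A set of 5 kidneys (vehicle 3, and 7c 1, 3, 4 and 5) held 90.6 to 98.5 CPM and the other 5 held 170 to 206 CPM, a gap as wide as which was found in 3.34% of the 17749 genes tested in kidney. The livers with the same 5 replicate numbers were the 5 lowest livers, 837 to 1286 CPM, against 1428 to 1839 CPM in the others. Of the 27 targets, Ahcy was the only one whose 5 lowest replicate numbers were the same in both organs, and 0.988% of the 14163 genes tested in both were.

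Ahcy shares most of its sequence with Ahcyl, another gene, annotated as protein-coding, at chr16:45973348-45975440 on the minus strand, which was looked up after the Ahcy values were seen. Of the 50-base words in the longest Ahcy transcript, 73.9% also occur in Ahcyl, so that reads could be counted on either gene. The values of Ahcyl ran opposite to those of Ahcy. Ahcyl took 21.4 to 22.2% of the summed CPM of the 2 genes in vehicle livers 1, 2 and 4 and 7c livers 2 and 6, and 45.3 to 52.1% in the other 5 livers. In kidney it took 17.8 to 21.6% in the libraries of the former numbers and 48.0 to 55.4% in those of the latter. The high share was found in 1 of 4 vehicle and 4 of 6 7c replicate numbers, the same in both organs.

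The sum of both genes showed no such gap, although in kidney the same 5 libraries remained the lowest. It was 1642 to 2352 CPM in liver and 184 to 252 CPM in kidney, and its coefficient of variation was 12.9% in liver and 10.4% in kidney, compared with 27.6% and 34.2% for Ahcy alone. With the counts of the 2 genes summed, the log2 fold change of 7c over vehicle was −0.04 (SE 0.12) in liver and −0.11 (SE 0.11) in kidney, while the difference between the organs stayed at −3.15 (SE 0.17) and −3.24 (SE 0.13). Ahcyl alone had log2 fold changes of 0.46 in liver and 0.57 in kidney (unadjusted p = 0.138 and 0.0984, adjusted p = 1.00 and 0.997).

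**Figure D4:**
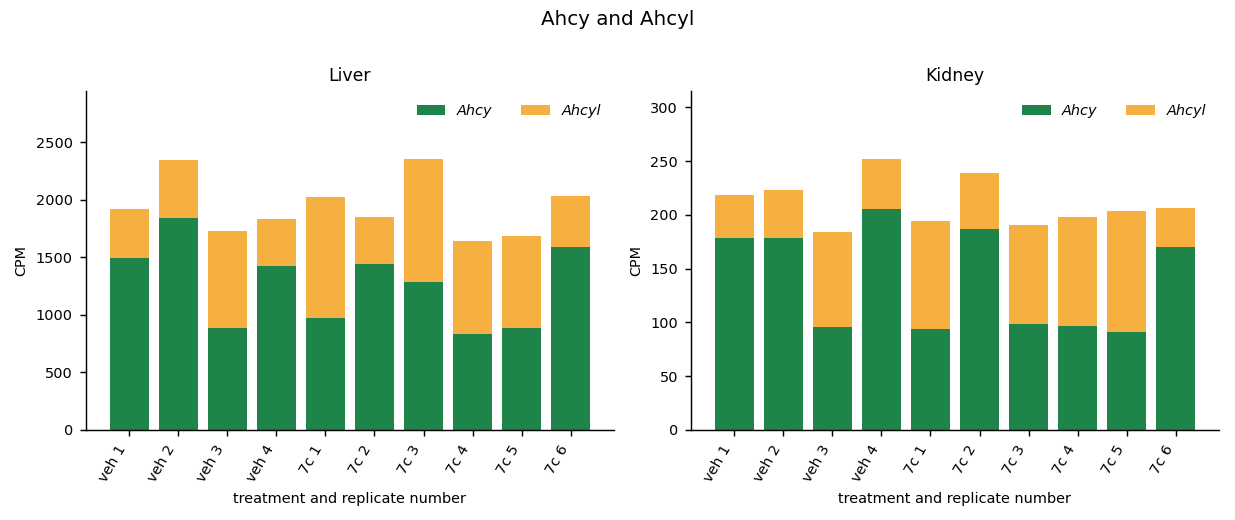
Stacked bars of the CPM of Ahcy (green) and Ahcyl (orange) in each library, by treatment and replicate number, in liver and kidney, on linear axes that start at 0. In both organs the orange part is about as tall as the green in vehicle 3 and 7c 1, 3, 4 and 5 (45.3 to 55.4% of the bar) and much shorter in the other 5 (17.8 to 22.2%), while the heights of the whole bars show no such gap.

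Hdac1 has a similar neighbour in sequence, the processed pseudogene Hdac1-ps at chr17:78799011-78800454, which shares 31.2% of the 50-base words of Hdac1. Hdac1-ps took 5.75 to 19.5% of the CPM of the pair in liver and 7.87 to 19.8% in kidney. The kidney shares fell into 2 sets, 16.5 to 19.8% in vehicle kidneys 3 and 4 and 7c kidneys 2, 4 and 5, and 7.87 to 9.14% in the other 5. The livers with the former 5 replicate numbers had the 5 highest liver shares, 10.6 to 19.5%, against 5.75 to 9.15% in the other 5. The former kidneys were also the 5 lowest kidneys for Hdac1 (24.8 to 29.7 CPM, against 32.2 to 38.0 CPM). Hdac1 was at 28.1 ± 5.91 CPM in vehicle livers and 30.9 ± 1.71 CPM in vehicle kidneys, and it was called in no comparison under TMM scaling. With library size alone it was higher in kidney in both groups of mice (log2 0.75 and 0.85).

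The class I histone deacetylases, the targets of valproate, were led by Hdac3, the catalytic subunit of the NCoR and SMRT corepressor complexes. Hdac3 made up 50.6 ± 3.13% of the RPKM of the 4 genes in liver and 41.5 ± 4.36% in kidney (n = 10). In 7c mice it was lower in kidney (39.9 to 51.2 CPM, median 41.8) than in liver (50.4 to 59.8 CPM, median 57.5), with a log2 difference of −0.38 (SE 0.09, adjusted p = 0.00173), and in vehicle mice the value was −0.24 (SE 0.13, adjusted p = 0.125). With library size alone both turned positive, to 0.29 and 0.35. Hdac1 and Hdac2 were close to equal per kilobase, with ratios of 1.02 and 1.21 in vehicle and 7c livers and 0.987 and 1.11 in kidneys, and none of the exact permutation tests on that ratio was past the threshold (lowest p = 0.200). With the length of the longest transcript the ratios were 0.847, 0.998, 0.816 and 0.917, so their order depended on the length used. Hdac8, an X-linked deacetylase that acts on cohesin, was at 3.63, 4.30, 6.21 and 4.05 CPM in vehicle livers and 7.40, 6.27, 8.20 and 8.44 CPM in vehicle kidneys (log2 0.74, SE 0.24, adjusted p = 0.0213), a call lost without vehicle replicate 1 or 4. In 7c mice the difference was 0.11 (SE 0.20, adjusted p = 0.667).

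Of the GSK3 kinases, Gsk3a exceeded Gsk3b per kilobase in all 20 libraries, 3.09-fold in vehicle and in 7c livers, 4.01-fold in vehicle kidneys and 4.59-fold in 7c kidneys. The ratio was higher in kidney than in liver by 0.57 log2 units in 7c mice (exact permutation test without pairing, p = 0.00216, adjusted p = 0.0115) and by 0.38 in vehicle mice (exact p = 0.0571, adjusted p = 0.152). The fitted differences of the single genes were small, 0.25 (SE 0.11, adjusted p = 0.0489) for Gsk3a and −0.30 (SE 0.11, adjusted p = 0.0340) for Gsk3b in 7c mice, and were lost in 7 and 9 of 18 alternatives. Gsk3a shares 22.8% of its words with 9130221H12Rik, which is transcribed from the opposite strand.

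Among the type I receptors, Acvr1b, which encodes the activin and nodal receptor ALK4, held 60.8 ± 6.29% of the RPKM in liver and 69.3 ± 3.18% in kidney. Acvr1b was at 24.8, 23.0, 24.6 and 16.5 CPM in vehicle livers and 34.6, 25.8, 42.3 and 45.0 CPM in vehicle kidneys (log2 0.74, SE 0.20, adjusted p = 0.00939, lost without vehicle replicate 4), and the difference was 0.53 (SE 0.15, adjusted p = 0.00542) in 7c mice. Tgfbr1, which encodes ALK5, the main target of repsox, was at 20.7 ± 4.04 CPM in vehicle livers and 21.9 ± 5.79 CPM in vehicle kidneys and was called in neither group of mice (log2 0.09 and 0.12). With library size alone it was higher in kidney in both (0.70 and 0.80). Acvr1c, which encodes ALK7, known from fat cells, had 0 to 12 counts in liver and 0 to 13 in kidney, so that a difference was not detectable at this depth. The summed level of 16 fat cell markers, which include Acvr1c, was 174 to 261 CPM in vehicle kidneys and 222 to 452 CPM in 7c kidneys, with Adipoq at 0.0896 to 2.01 and 1.34 to 9.14 CPM. To this sum Pnpla2 gave 125 CPM, Fabp4 30.7 CPM and Car3 25.4 CPM on average in vehicle kidneys. Ucp1 was at 0 in all vehicle kidneys and ranged from 0 to 25.8 CPM in 7c kidneys. Across the 10 kidneys the log2 CPM of Acvr1c and the mean of the 15 other genes had a Pearson r of 0.17 (permutation p = 0.636) and a Spearman rho of 0.26 (permutation p = 0.459), and r was −0.03 without the 2 kidneys farthest from the median. In liver, with 14 other genes detected, they were −0.28 (permutation p = 0.431) and −0.28 (permutation p = 0.437), and −0.27 without the farthest 2. The list need not stand for fat cells there: vehicle livers held Car3 at 7399 CPM, Thrsp at 334 CPM and Pnpla2 at 78.5 CPM on average. Adipoq was at 0.0888 CPM and Plin1 and Lep at 0 in the same livers. Within the 6 7c libraries r was −0.38 in kidney and −0.83 in liver, and the 4 vehicle libraries were too few for a value. The p adjusted over the 4 relations was 0.821 for r in both organs.

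The retinoic acid receptors bind retinoic acid response elements as heterodimers with RXR, and Rarb and Cyp26a1 are textbook targets of their own pathway. They are shown here because the readout of TTNPB turns on them. The 100 bases before the start of each gene were taken from RefSeq (GRCm38.p6), 5′ to 3′ on the gene's strand. Capitals mark a direct repeat spaced by 5 bases, GTTCANNNNNAGTTCA on either strand, a form chosen after the sequences were seen.
Rarb, chr14:16575477-16575576, minus strand: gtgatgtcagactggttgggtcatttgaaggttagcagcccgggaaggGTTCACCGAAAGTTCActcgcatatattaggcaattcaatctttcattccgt
Cyp26a1, chr19:37697708-37697807, plus strand: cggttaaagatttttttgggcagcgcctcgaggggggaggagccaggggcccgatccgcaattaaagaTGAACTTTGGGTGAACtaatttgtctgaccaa
The repeat ends 36 bases before the start in Rarb, where it reads on the gene's strand, and 16 bases before it in Cyp26a1, where it reads on the opposite strand. These letters were found in 11 of 32851 promoters of 300 bases (0.0335%), and Rarb was the only target among them. The canonical letters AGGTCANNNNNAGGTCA and AGGTCANNAGGTCA were found in 0 target promoters and in 0.00913% of all promoters each, and the cAMP response element TGACGTCA in 0 target promoters and 1.79% of all. Promoters were given for 25 of the 30 targets, not for Hdac1, Hdac3, Maob, Adcy6 and Adcy8.

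Rarb, the receptor gene that retinoic acid induces, was the lowest of the 3 receptors, with 4.74 ± 2.09% of their RPKM in liver and 1.86 ± 1.07% in kidney. It was at 0.816, 2.92, 3.35 and 3.05 CPM in vehicle livers and 0.816 to 3.16 CPM (median 1.68) in 7c livers, and at 0.915, 1.01, 2.38 and 1.45 CPM in vehicle kidneys and 0.276 to 1.47 CPM (median 0.959) in 7c kidneys. The log2 fold change of 7c over vehicle was −0.44 (SE 0.44, 95% interval −1.38 to 0.50) in liver and −0.68 (SE 0.42, 95% interval −1.60 to 0.24) in kidney, so that an increase of more than 0.50 or 0.24 log2 units lay outside these intervals. Rarb shares 27.2% of its words with Top2b, an overlapping gene on the opposite strand, and how strand was treated in the counting is not stated. Exons of 17 of the 30 targets overlap a gene on the opposite strand. Cyp26a1, the retinoic acid hydroxylase that is the most sensitive readout of the pathway in liver, was at 33.1 ± 4.78 CPM in vehicle livers and 24.8 ± 3.80 CPM in 7c livers, a log2 fold change of −0.44 (SE 0.13, unadjusted p = 0.00432, adjusted p = 1.00). Its ranges of 28.9 to 39.7 and 19.9 to 30.3 CPM overlapped, and it was under 1 CPM in all kidneys.

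Rara held the largest share of the receptors, 70.2 ± 6.53% in liver and 65.3 ± 7.00% in kidney, and Rarg, best known from epithelia, followed with 25.1 ± 5.70% and 32.8 ± 6.28%. Rarg was at 4.81, 8.09, 5.38 and 5.54 CPM in vehicle livers and 10.1, 10.7, 11.1 and 12.7 CPM in vehicle kidneys, with no overlap. The log2 difference was 0.92 (SE 0.21, adjusted p = 0.00370) and in 7c mice 0.81 (SE 0.16, adjusted p = 0.000341). Rara was higher in kidney in 7c mice (0.52, SE 0.17, adjusted p = 0.0132, lost without 7c replicate 1) and was at 0.19 (SE 0.21, adjusted p = 0.466) in vehicle mice.

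Some of the spread among kidneys was shared by many genes. Of the 27 targets, 9 had a Pearson r of at least 0.8, in either direction, with the first principal component of the 10 kidneys, which held 40.3% of the variance, as did 29.0% of all tested genes. Adcy6 (0.96), Tgfbr1 (0.92), Rcor1 (0.90), Acvr1b (0.88), Suz12 (0.87), Adcy9 (0.83) and Eed (0.82) ran with it, and Rara (−0.94) and Hdac3 (−0.87) ran against it. The component followed the length trend, with vehicle kidney 2 and 7c kidney 5 at its low end and vehicle kidneys 1 and 3 and 7c kidney 3 at its high end, so it did not separate the treatments. In liver, Rcor1 (r = 0.85) and Gsk3a (r = 0.70) had the highest correlations with the length trend of the libraries (n = 10, as a description). Without vehicle kidney 2 and 7c kidney 5, 0 of 27 targets were called between 7c and vehicle.

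**Figure D5:**
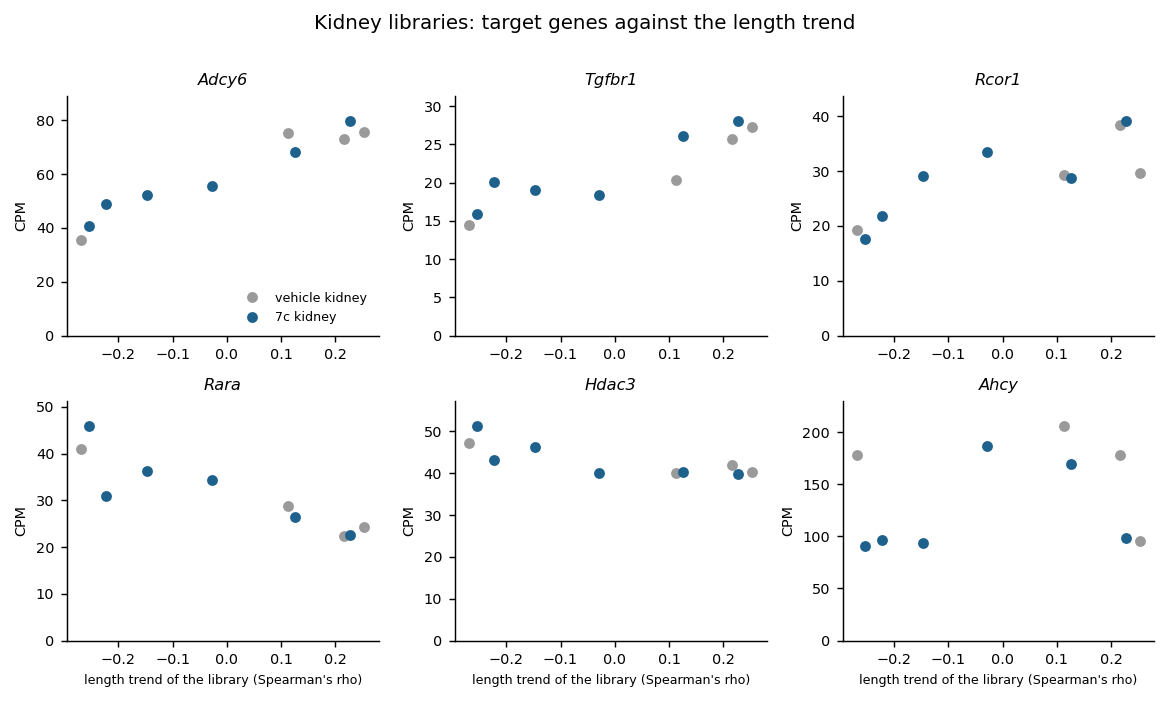
Level in CPM (linear, from 0) of 6 targets in each kidney library, by the Spearman rho of the library's gene deviations with exon length, with grey points for vehicle and blue for 7c. Adcy6, Tgfbr1 and Rcor1 are lowest and Rara and Hdac3 highest in the libraries with the most negative rho, and Ahcy forms the 2 levels described above on both sides.

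The other genes of the 7 pathways, 177 in lists of partners and response genes, showed no called change with 7c either. None of 156 tested in liver and none of 165 in kidney passed the threshold (edgeR quasi-likelihood), and 7 and 4 had an unadjusted p under 0.05 (3.76% and 2.61% of all genes did). Of the response genes, Axin2, a feedback inhibitor induced by beta-catenin, was at 9.52 ± 2.16 and 9.69 ± 1.45 CPM in liver, in vehicle and 7c in that order, and 0.846 ± 0.630 and 0.902 ± 0.309 CPM in kidney. Of the cAMP response genes, Pck1, the gluconeogenic enzyme PEPCK, was at 2335 ± 486 and 2068 ± 1008 CPM in liver and 952 ± 204 and 999 ± 259 CPM in kidney, and Ppargc1a, a coactivator of gluconeogenesis and mitochondrial genes, at 7.96 ± 1.83 and 7.68 ± 2.02 CPM in liver and 34.3 ± 4.65 and 30.5 ± 6.74 CPM in kidney. Sp5, another beta-catenin response gene, was noticed for its value: 0.557 ± 0.349 CPM in vehicle livers and 1.99 ± 0.737 CPM in 7c livers (log2 1.78, SE 0.51, unadjusted p = 0.00359, adjusted p = 1.00), with an interaction between treatment and organ of −1.87 (SE 0.45, adjusted p = 0.425).

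Between the organs, 47 of these genes were higher in kidney and 52 higher in liver of 170 tested in vehicle mice (27.6% and 30.6%, beside 28% and 24.2% of all genes), and 58 and 66 of 169 in 7c mice (34.3% and 39.1%, beside 33.8% and 30.4%). In vehicle mice the HDAC partners had 6 higher in kidney and 3 in liver of 22, the LSD1 and amine oxidase partners 4 and 3 of 13, and the PRC2 and methyl cycle partners 7 and 7 of 17. The Wnt partners had 4 and 7 of 20 and the Wnt response genes 1 and 7 of 10, while the TGF-beta partners had 5 and 5 of 21 and the response genes 3 and 3 of 10. The cAMP partners had 9 and 9 of 28 and the response genes 2 and 3 of 10, and the retinoid partners had 3 and 3 of 11 and the response genes 3 and 2 of 8. The genes with the largest differences within their own lists included the Sin3 subunit Sap30 (2.95 CPM in vehicle livers and 31.0 CPM in vehicle kidneys) and the NuRD helicase Chd3 (147 and 473 CPM). Of the amine oxidases that tranylcypromine does not chiefly target, Aoc1 was at 0.00911 and 4.21 CPM and Aoc3 at 0.224 and 2.78 CPM, both higher in kidney. The methyl cycle enzymes that supply or clear the substrates around AHCY were much higher in liver, where Mat1a was at 2941 CPM in vehicle livers and 0.628 CPM in vehicle kidneys, and Bhmt at 4042 and 10.3 CPM. The activin subunits Inhbe (60.7 and 0.0106 CPM) and Inhbc (65.4 and 0.0156 CPM) and the cAMP-regulated Tat (2095 and 0.547 CPM) and Rapgef4 (119 and 3.34 CPM) were also higher in liver, as were Tnfrsf19 (5.77 and 0.119 CPM) and Cyp26a1 (33.1 and 0.422 CPM). Sp5 was higher in kidney (0.557 and 16.6 CPM), and Stra6, the retinol transporter, had 0 counts in all 10 livers and a mean of 3.33 CPM in vehicle kidneys.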

How the data were processed

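The authors deposited raw counts per gene, made from poly(A)-selected, stranded libraries with STAR 2.7.11b and featureCounts 2.0.6 on GRCm39, and no value was normalized before deposit. The strand and multi-mapping settings of the counting are not given in the sources used here. Exons of 17 of the 30 targets overlap exons of a gene on the opposite strand, and those of 2 targets a gene on the same strand. Examples of the 50-base words shared with such a gene are Adcy9 (19.1%, Gm60084), Ezh1 (16.2%, Cntnap1), Adcy7 (15.9%, Brd7) and Kdm1a (13.5%, Luzp1). The part of these overlaps in the counts was not tested. Of 57010 genes, 56310 were matched to GENCODE positions, and the other 700 held 0.0417% of the counts. The labels call the samples of a group biological replicates, and no 2 libraries agreed within sampling noise.

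A gene was tested if 50% or more of a comparison's samples held 10 or more counts of it. Tests were run with edgeR 4.0.16 (R 4.3.3), using TMM scaling, the quasi-likelihood test and Benjamini-Hochberg adjustment over all tested genes, with a threshold of 0.05, separately in liver and kidney as in the authors' one-way design. Kidney was compared with liver within each treatment, and the interaction was fitted on all 20 samples, both without pairing the organs of a mouse. Unadjusted p-values of genes come from the same edgeR fits. Standard errors were derived from them, as the size of the log2 fold change divided by the square root of the F statistic. The 95% intervals use these errors with the t quantile at the test's degrees of freedom. RPKM used the union of exons. Ratios of related genes were tested by two-sided exact permutation of libraries, without pairing the organs, and correlations across 10 samples with 100000 permutations. Alternatives were DESeq2 1.42.0 size factors and tests, limma 3.58.1 with voom, the likelihood ratio test, library size alone, no filter, another filter, 1 fit for all samples, a replicate block and leaving out each mouse number. Added after the data were seen were halved counts, leaving out vehicle kidney 2 and 7c kidney 5, and summing Ahcy and Ahcyl. The scripts were tested on simulated data.

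The members and lists were chosen with earlier results of these data known. All 30 targets are named, with Cyp26a1, Axin2, Pck1 and Ppargc1a as readouts (1 further readout is not reported here), and, between the organs, up to 2 genes per list with the largest difference called in both treatments with the same sign. Ahcyl, Hdac1-ps, the value of Sp5 with 7c and the relaxed repeat were chosen after values or sequences were seen. A count of 0 allows up to 3 counts, which is 0.103 to 0.136 CPM in liver and 0.0366 to 0.0836 CPM in kidney, for counting error only. These limits double if each fragment gave 2 counts, which the even counts leave possible.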

Additional observations from a re-analysis of the deposited data

Results flagged for a closer look

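In 9 of 112 groups tested, 1 library lay far from the rest of its group (Dixon's test at 95%), where chance gives about 1 in 20 groups. Adcy6 was at 35.4 CPM in vehicle kidney 2, with 73.0 to 75.5 CPM in the other vehicle kidneys. Ezh1 was at 51.9 CPM in 7c kidney 5 (63.1 to 68.4 CPM in the others), and Suz12 at 29.7 CPM in 7c kidney 3 (17.1 to 20.6 CPM). These 3 libraries lay near the ends of the kidney length trend, whose part in these values was not tested. Adcy9 was at 11.4 CPM in 7c liver 1 (26.9 to 35.4 CPM), Rarb at 0.816 CPM in vehicle liver 1 (2.92 to 3.35 CPM) and Adcy1 at 12.3 CPM in vehicle kidney 3 (10.3 to 10.6 CPM). The genes under the count filter gave the rest, with Acvr1c at 0.487 CPM in 7c liver 3 (0 to 0.171 CPM), Adcy2 at 0.726 CPM in 7c liver 6 (0 to 0.256 CPM), the liver that held skeletal muscle markers, and Adcy2 at 0.717 CPM in vehicle kidney 2 (0 to 0.0832 CPM).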

How the results depend on the processing

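No alternative gave a called target between 7c and vehicle in either tissue, or in the interaction. Between the organs, the number of called targets was 10 to 12 in vehicle mice and 14 to 17 in 7c mice when 1 mouse number was left out, compared with 12 and 19 with all. Ahcy, Maob, Adcy9, Adcy1, Adcy6, Rarg and Ezh1 kept their call and sign under every alternative in both groups of mice. With library size alone the sign turned for Hdac3 (0.35 in vehicle and 0.29 in 7c mice), Rcor1 (0.58 in vehicle mice), and Gsk3b (0.38), Eed (0.19) and Suz12 (0.30) in 7c mice, of which Hdac3 in both groups, Rcor1 and Gsk3b were then called higher in kidney. Among values not called, those of Gsk3b (0.34), Suz12 (0.17) and Adcy4 (0.44) in vehicle mice also turned, and by that construction all genes shifted toward kidney. With a replicate block, 12 targets (6 higher in kidney, 6 in liver) were called in vehicle mice and 15 (7 and 8) in 7c mice, where the calls of Hdac2, Gsk3a, Rarb and Suz12 were lost. The labels do not say that a number marks 1 mouse. The correlation of deviations between liver and kidney of 1 number was 0.0130 to 0.259 and over 0.1 in 7 of 10 pairs, not in all, and 8 of 10 correlated best with their own number. The Ahcyl share and the Hdac1-ps share each split the numbers the same way in both organs. The paper took liver and kidney from the same mice, so the organs are not independent, whichever numbers belong together. The main fits between the organs and the interaction did not pair them. In 7c mice the count was 18 with DESeq2, limma-voom or the likelihood ratio test and 16 without vehicle kidney 2 and 7c kidney 5. Over all genes, DESeq2 called 6 genes between 7c and vehicle in liver and 18 in kidney, where edgeR's quasi-likelihood test called 1 and 0. The likelihood ratio test of edgeR called 4 higher and 3 lower in liver, and 4 higher and 10 lower in kidney. The paper, also with edgeR, lists differentially expressed genes in both organs. With list genes scaled before averaging, the correlation of Ezh2 with proliferation genes was 0.11 in liver and −0.74 in kidney (permutation p = 0.0152). Leaving out 1 mouse at a time the liver value ran from −0.45 (7c replicate 5) to 0.36 (7c replicate 2) and the kidney value from −0.63 to −0.52. For Acvr1c with fat cell genes the liver range was −0.48 to −0.11, and the kidney range −0.056 (vehicle replicate 2) to 0.39 (7c replicate 4). The cause was not tested. At these depths Acvr1c, Adcy2 and Adcy8 were too low to compare.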
